A study of Mus musculus with 6 samples.

Results

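Leukocyte marker genes were followed in the pancreas of wild-type mice after saline or cerulein. They are 38 genes in common use as markers of blood-derived immune cells, chosen by symbol, and all 38 were among the 36333 genes of the count table. By use as markers they fall into 6 general leukocyte genes, 11 monocyte and macrophage genes, 4 antigen-presentation genes, 8 neutrophil genes and 9 lymphocyte genes. Of these, 36 passed the filter on low counts and were tested. Nkg7, a granule gene of cytotoxic lymphocytes, had at most 8 counts in any library and was not tested. Ms4a1, which encodes the B cell antigen CD20, was at 0 in all 6 libraries. It lies inside the span of another gene, 4930526L06Rik, and 655 of 677 protein-coding genes placed in this way (96.8%) were at 0 in all 6 libraries, so the 0 was treated as no measurement.

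The saline group was 3 wild-type samples after intraperitoneal saline. The cerulein group was 3 wild-type samples after intraperitoneal cerulein, an analogue of cholecystokinin that overstimulates acinar cells and is used to induce acute pancreatitis. Mice received 10 injections of 200 µl, at a dose of 200 µg/kg/h, and the pancreas was taken for RNA when the series ended. The sources used here give neither the strain, age and sex of the mice nor whether animals were pooled. As the labels do not say that samples of a group came from separate animals, the p-values measure the spread between these samples, which may be technical.

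In acute pancreatitis, injured acinar cells release signals that draw in blood leukocytes, neutrophils and inflammatory monocytes first. Neutrophils roll and stick on activated vessels, cross into the tissue and release granule proteins and proteases. Inflammatory monocytes carry the chemokine receptor CCR2 and follow its ligand CCL2, whereas the resident macrophages of the gland are marked by the receptors ADGRE1 (F4/80), CSF1R and MRC1, by the complement C1q chains and by MHC class II. Bulk RNA cannot separate a change in the number of cells of a type from a change in RNA per cell.

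Total counts per library lay between 5335117 and 7610775. Summed levels of 10 acinar enzyme genes lay between 333863 and 647718 CPM (the usual per-library scaling of counts, here with TMM factors) in saline and between 200509 and 256991 CPM in cerulein, with saline replicate 1 the lowest of the saline libraries. Of all counts, the 38 markers together took 0.109%, 0.0257% and 0.0538% in the saline libraries, in the order of their replicate numbers, and 0.160%, 0.120% and 0.125% in the cerulein libraries, an order kept for all values below. The 38 markers were thus a small part of each library, and single genes rested on few reads.

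After cerulein, 5 of the 11 monocyte and macrophage genes were called higher (45.5%, beside 28.7% of all genes tested). Ccr2 rose by 2.33 ± 0.32 and Cd14 by 2.81 ± 0.29 on the log2 scale (SE, n = 3 per group), with Ly6c2, Cd68 and Lyz2 also higher. Relative to the general leukocyte genes of the same library, the groups overlapped for Cd68 and Lyz2. The resident macrophage genes Csf1r, Mrc1, C1qa, C1qb and C1qc had log2 fold changes between -0.28 and 0.09, and Adgre1 had -0.87 ± 0.36. MHC class II genes did not pass the test. Of the neutrophil genes, Trem1 and Clec4d were called with all 6 libraries, and Csf3r and Cxcr2 were called as well without saline replicate 1. In that library S100a8 and S100a9 were higher than in every cerulein library, and neither passed with or without it. T cell genes did not pass the test, and Ltb was the lymphocyte gene called.

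The threshold for a call was an adjusted p of 0.05 in edgeR's quasi-likelihood F test over 12441 genes. Of the 36 markers tested, 10 were called higher (27.8%) and none lower, with 11 at an unadjusted p under 0.05. Over all genes tested, 28.7% were called higher and 27.1% lower, so the share called higher was close to that background. None was called lower by edgeR without saline replicate 1, with RLE factors or library size alone, by limma-voom or by DESeq2. Adgre1 was called lower with upper-quartile factors or without a count filter, and 3 markers were called lower without saline replicate 2. The median log2 fold change was 0.32 over the 36 markers and -0.00089 over all genes. The groups did not overlap for 12 of the 36, with cerulein above in each, against 32.4% of all genes with cerulein above and 30.6% with cerulein below. Without saline replicate 1, 13 markers were called higher (36.1%) and none lower, against 29.2% and 28.1% of genes, and the median was 0.95. The 10 markers called with all libraries were all among those 13.

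**Figure D1:**
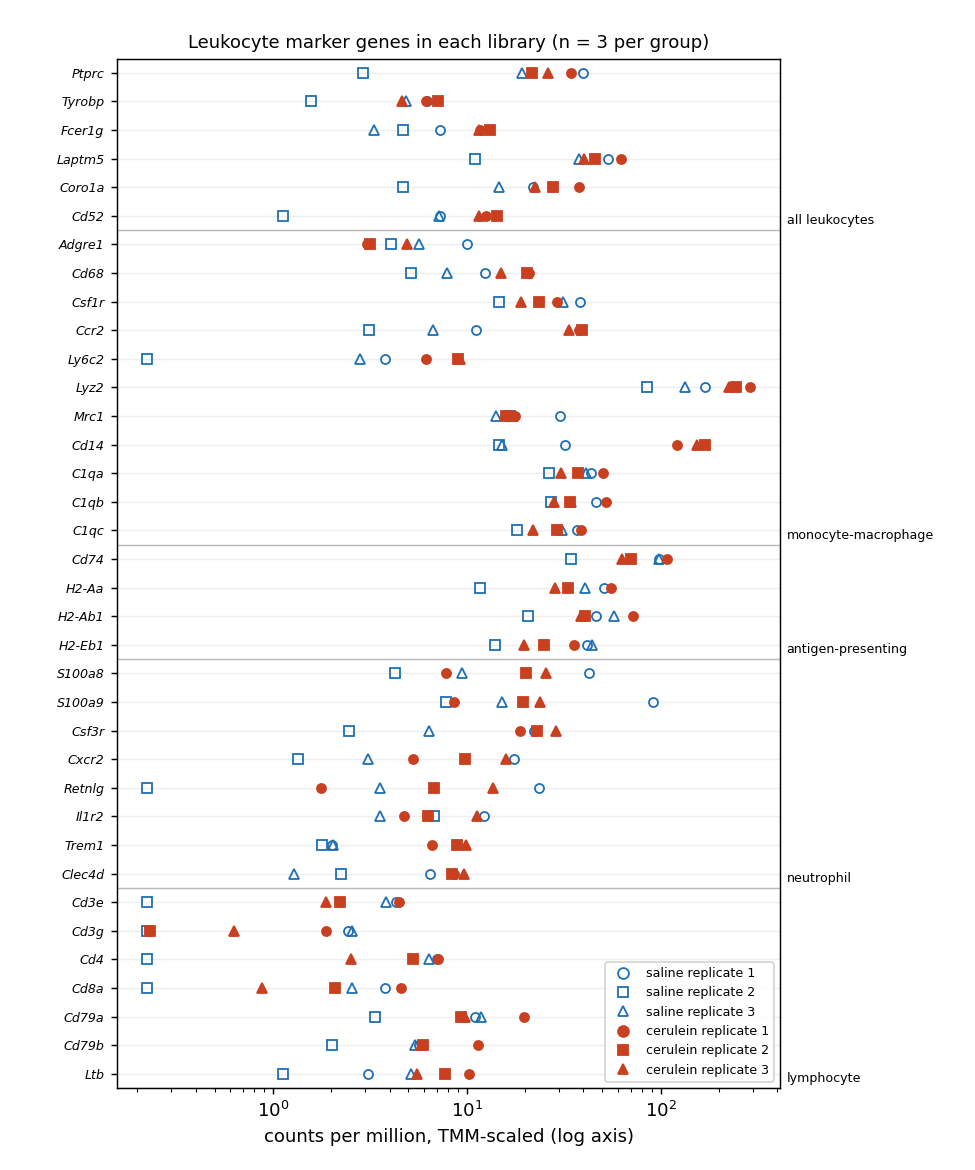
Level of each tested marker in each library, in TMM-scaled CPM on a log axis, grouped by marker class. Open blue symbols are the 3 saline libraries and filled red symbols the 3 cerulein libraries. Saline replicate 2 (open square) is the lowest of all 6 libraries for 31 of 36 genes, and saline replicate 1 (open circle) is the highest for 9.

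The saline libraries differed among themselves in the level of leukocyte genes. Saline replicate 1 had the highest level of the saline libraries for 29 of the 36 markers, against 36.9% of all genes tested. It was the highest of all 6 libraries for 9 markers, against 16.8% of genes. Saline replicate 2 was the lowest of the saline libraries for 32 markers, against 35.9% of genes, and the lowest of all 6 for 31, against 21.9%. The ratio of saline replicate 1 to the mean of the other saline libraries had a median of 1.95 over the markers tested and of 0.99 over all genes. It ran from 0.99 for Ltb to 12.4 for Retnlg. In saline replicate 1 the acinar sum was 333863 CPM, with 647718 and 645234 CPM in the other saline libraries, and the sum of 7 red blood cell genes was 51.6 CPM against 139.9 and 293.6 CPM. A high level in saline replicate 1 was not particular to leukocyte genes. The sum of 8 adipocyte genes was 287 CPM there against 130 and 156 CPM, and that of 7 lymphoid stroma genes 119 against 25.8 and 68.2 CPM. The sum of 10 endothelial genes was 188 CPM against 168 and 193 CPM. The part of these differences in the results below was not tested.

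The summed level of the 6 general leukocyte genes was 136, 26.1 and 87.2 CPM in saline replicates 1, 2 and 3 and 165, 130 and 117 CPM in the cerulein replicates. The groups overlapped, because saline replicate 1 lay above 2 of the cerulein libraries. Sums of the monocyte and macrophage genes were 434, 215 and 324 CPM in saline and 666, 628 and 559 CPM in cerulein, with no overlap. For the neutrophil genes the sums were 219, 26.96 and 44.6 CPM in saline and 62.2, 103 and 139 CPM in cerulein. Saline replicate 1 stood above every cerulein library there, and the other saline libraries stood below them.

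**Figure D2:**
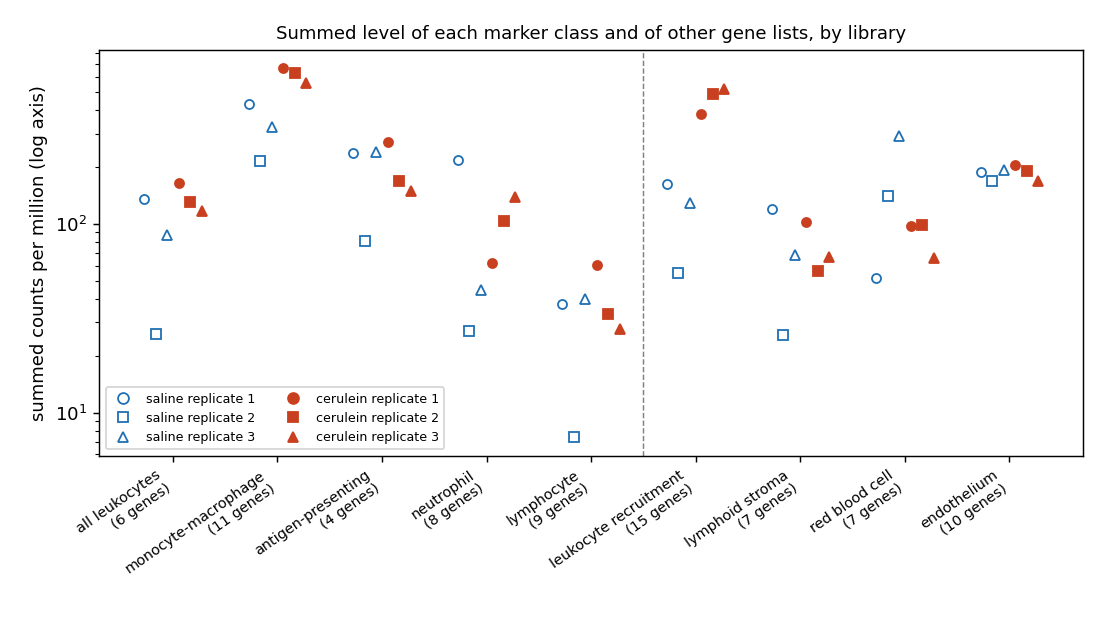
Summed TMM-scaled CPM of each marker class (left of the dashed line) and of 4 other gene lists (right of it), on a log axis, with 1 symbol for each library. The neutrophil sum of saline replicate 1, 219 CPM, is the highest of the 6, while the monocyte-macrophage sums of the cerulein libraries, 559 to 666 CPM, lie above all saline sums, and the endothelial sums lie close together in all 6.

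Among the general leukocyte genes, 2 of 6 were called higher (33.3%, beside 28.7% of all genes), 4 did not pass the test and none was lower. Ptprc encodes CD45, the surface phosphatase carried by nearly all leukocytes. Its level was 40.0, 2.92 and 19.2 CPM in saline replicates 1, 2 and 3 and 34.5, 21.7 and 26.3 CPM in the cerulein replicates. The groups overlapped, with both the highest and the lowest library in saline, and the log2 fold change was 0.36 ± 0.73 (adjusted p = 0.713, edgeR). Without saline replicate 1 it was 1.33 ± 0.77 (adjusted p = 0.231), and without saline replicate 2 it was -0.13, so neither its size nor its sign was settled.

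Fcer1g encodes the signalling chain that Fc receptors and other activating receptors of myeloid cells share. It stood at 7.29, 4.72 and 3.33 CPM in saline and at 11.7, 13.2 and 11.6 CPM in cerulein. All cerulein libraries lay above all saline libraries, and the rise was 1.19 ± 0.27 on the log2 scale (adjusted p = 0.00243, edgeR), or 1.54 ± 0.29 without saline replicate 1. It passed under all 14 alternatives. Tyrobp, also called DAP12, had a log2 fold change of 0.46 ± 0.39, with overlapping groups.

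Cd52, a small glycoprotein of lymphocytes and monocytes, was at 7.29, 1.12 and 7.18 CPM in saline and at 12.5, 14.4 and 11.6 CPM in cerulein. The groups did not overlap, and it rose by 1.27 ± 0.44 (adjusted p = 0.0335, edgeR). That call was lost without any 1 of the cerulein libraries (adjusted p = 0.0663, 0.101 and 0.0598 without replicates 1, 2 and 3) and with upper-quartile factors (adjusted p = 0.0690), and the log2 fold change was 0.83 without saline replicate 2. Coro1a, an actin-binding protein of leukocytes, was at 21.9, 4.72 and 14.6 CPM in saline and at 38.1, 28.0 and 22.4 CPM in cerulein. Its groups just failed to overlap, with saline replicate 1 next to cerulein replicate 3. It did not pass with all libraries (1.06 ± 0.47, adjusted p = 0.0959) but did without saline replicate 1 (1.61, adjusted p = 0.0285) or saline replicate 2 (0.68, adjusted p = 0.0360). With all 6 libraries it was also called higher by DESeq2 (adjusted p = 0.00741), with library size alone (adjusted p = 0.0256), without a count filter (adjusted p = 0.00780) and with the replicate block (adjusted p = 0.0234), but not under the other scalings and filters or by limma-voom. Laptm5, a lysosomal membrane protein of blood cells and the most abundant of the 6, was at 53.4, 11.0 and 37.95 CPM in saline and at 62.3, 45.7 and 40.4 CPM in cerulein (0.52 ± 0.52).

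Among the 11 monocyte and macrophage genes, 5 were called higher (45.5%, beside 28.7% of all genes) and 6 did not pass the test. The 5 that rose were Ccr2, Ly6c2, Cd14, Cd68 and Lyz2, and each passed under all 14 alternatives. Ccr2, the receptor that brings inflammatory monocytes out of the bone marrow and into tissue, was at 11.2, 3.14 and 6.67 CPM in saline and at 38.01, 39.3 and 33.8 CPM in cerulein. The lowest cerulein library was well above the highest saline library. The rise was 2.33 ± 0.32 on the log2 scale (adjusted p = 1.20e-04, edgeR), and 2.91 ± 0.26 without saline replicate 1.

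Ly6c2, part of the Ly6C antigen of inflammatory monocytes, was at 3.78, 0.225 and 2.82 CPM in saline and at 6.14, 8.99 and 9.19 CPM in cerulein. The groups did not overlap, although 1 read stood behind the value of saline replicate 2. The rise was 1.74 ± 0.51 (adjusted p = 0.0136, edgeR), or 2.43 ± 0.54 without saline replicate 1. The near-identical neighbour Ly6c1, which endothelial cells also express, was at 22.1 to 24.5 CPM in saline and at 29.8 to 37.1 CPM in cerulein, so reads may have been split between the copies and the value of Ly6c2 is uncertain.

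Cd14, the co-receptor for bacterial lipopolysaccharide, had the largest fold change of the 36 tested markers. It was at 32.0, 14.6 and 15.1 CPM in saline and at 121, 169 and 154 CPM in cerulein. The groups lay far apart, and the rise was 2.81 ± 0.29 (adjusted p = 2.37e-05, edgeR), or 3.28 ± 0.20 without saline replicate 1. Cd14 is made by monocytes and macrophages and, under inflammatory signals, by other cells as well.

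Cd68, a lysosomal glycoprotein of phagocytes, was at 12.4, 5.17 and 7.95 CPM in saline and at 20.9, 20.5 and 14.99 CPM in cerulein. Lyz2, the lysozyme of monocytes, macrophages and neutrophils, was the most abundant marker, also per length, with 98.2 ± 32.1 CPM per kilobase of exon in saline (SD, n = 3). Its level was 169, 84.9 and 134 CPM in saline and 289, 246 and 224 CPM in cerulein. Neither gene had overlapping groups. Cd68 rose by 1.10 ± 0.28 (adjusted p = 0.00449, edgeR) and Lyz2 by 0.97 ± 0.23 (adjusted p = 0.00306). The lysozyme copy Lyz1 was at 1.64 to 4.32 CPM in all libraries, far below Lyz2.

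The promoter sequence of these genes is shown so that it can be read beside the motifs of factors known to drive myeloid genes. RefSeq promoter windows (GRCm38.p6, 250 bases before a transcription start) were found for 27 of the 38 markers, with 30 windows in all. On either strand, GAGGAA, the core bound by the myeloid factor PU.1, was in 17 of these 30 windows (56.7%) and in 23.3% of all 32851 windows. TTNNGNAA, a form of the C/EBP motif, was in 16 of 30 (53.3%) and in 36.8% of all. These shares cover all marker windows, called or not, and by gene GAGGAA was in 16 of 27 (59.3%). Of the genes called higher, Cd68, Ly6c2, Trem1, Clec4d and Ltb had it and Ccr2, Lyz2 and Fcer1g did not. Mrc1, C1qb, C1qc, Cd8a and Cd3e were among the genes that had it without being called. The windows of the 2 phagocyte genes above are chr10:117282273-117282522 and chr11:69666171-69666420, both on the minus strand. Capitals mark matches, which are TTNNGNAA in Lyz2 and, in Cd68, GAGGAA, TTNNGNAA at 3 places and CCAATCA, the reverse strand of the Y box TGATTGG.
Lyz2: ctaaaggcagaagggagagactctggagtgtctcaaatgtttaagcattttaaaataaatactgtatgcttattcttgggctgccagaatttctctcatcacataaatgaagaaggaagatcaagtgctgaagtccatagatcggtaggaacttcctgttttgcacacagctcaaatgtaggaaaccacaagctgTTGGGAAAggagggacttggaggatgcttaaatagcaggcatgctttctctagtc
Cd68: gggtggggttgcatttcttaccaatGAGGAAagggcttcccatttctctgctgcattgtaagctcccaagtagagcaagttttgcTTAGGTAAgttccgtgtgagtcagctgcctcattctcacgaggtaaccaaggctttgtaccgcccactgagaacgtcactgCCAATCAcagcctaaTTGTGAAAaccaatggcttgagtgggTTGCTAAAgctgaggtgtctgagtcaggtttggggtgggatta
A match describes letters in the window and does not show that a factor is bound there.

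The 6 markers used for resident macrophages, Adgre1, Csf1r, Mrc1 and the C1q genes, did not pass the test with all libraries. Adgre1, the F4/80 antigen, was at 10.0, 4.04 and 5.64 CPM in saline and at 3.07, 3.15 and 4.91 CPM in cerulein. Its groups overlapped in 1 place, cerulein replicate 3 above saline replicate 2, and its log2 fold change was -0.87 ± 0.36 (adjusted p = 0.0577, edgeR). Without saline replicate 2 it was called lower at -1.12 (adjusted p = 0.0122), and without saline replicate 1 it was -0.41 ± 0.38 (adjusted p = 0.372).

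Csf1r, the receptor for the macrophage growth factors CSF1 and IL-34, was at 38.2, 14.6 and 31.5 CPM in saline and at 29.0, 23.6 and 19.1 CPM in cerulein. The highest and the lowest library were both saline, and the log2 fold change was -0.25 ± 0.31 with all libraries. It was called lower without saline replicate 2 (-0.54, adjusted p = 0.0341), and its sign turned without saline replicate 1 (0.04 ± 0.30). Mrc1, the mannose receptor CD206, was at 30.1, 16.6 and 14.1 CPM in saline and at 17.8, 16.0 and 17.4 CPM in cerulein. Saline replicate 1 alone stood apart from the other 5 libraries for Mrc1, and the log2 fold change was -0.28 ± 0.25, or 0.11 ± 0.21 without that library.

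The complement genes C1qa, C1qb and C1qc lie side by side on chromosome 4 and encode the 3 chains of C1q, which tissue macrophages produce. C1qa was at 43.5, 26.5 and 41.3 CPM in saline and at 50.4, 37.6 and 30.5 CPM in cerulein. The groups overlapped for each chain, with log2 fold changes of 0.09 ± 0.22 for C1qa, 0.08 ± 0.25 for C1qb and 0.05 ± 0.27 for C1qc. The sign of all 3 turned with upper-quartile factors.

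**Figure D3:**
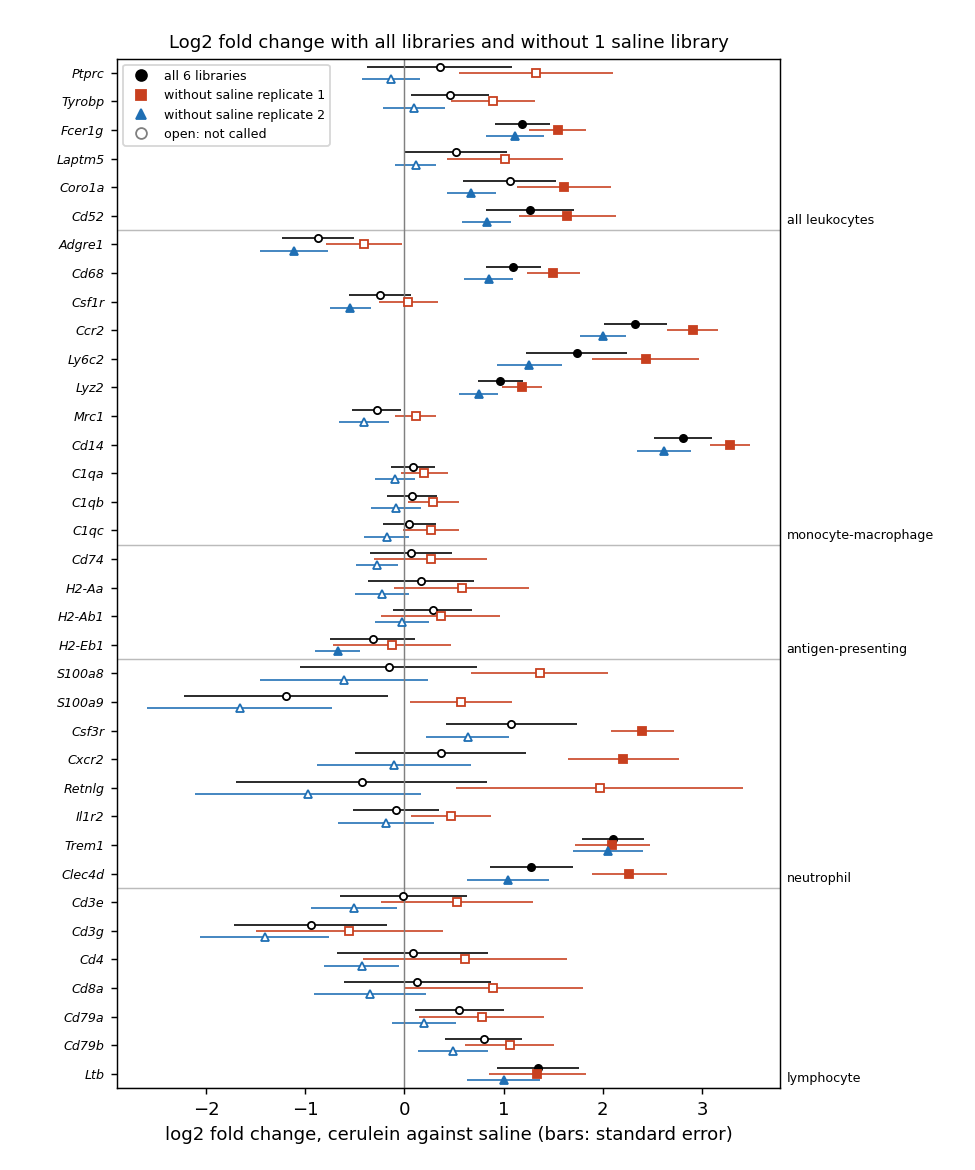
Log2 fold change of each tested marker, cerulein against saline, with its standard error: black circles for all 6 libraries, red squares without saline replicate 1 and blue triangles without saline replicate 2; filled symbols were called. Ccr2, Cd14 and Trem1 keep a rise in all 3 fits, whereas S100a9 moves from -1.19 with all libraries to 0.57 without saline replicate 1.

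Because the level of leukocyte genes differed between libraries, each marker was also set against the 6 general leukocyte genes of the same library, a measure chosen after the values had been seen. It needs no library scaling, and the sums below it were 1007, 116 and 340 counts in saline replicates 1, 2 and 3 and 1400, 1115 and 929 in the cerulein replicates, so saline replicate 2 is the least precise. Ccr2 gave 0.0824, 0.121 and 0.0765 counts per general leukocyte count in saline and 0.230, 0.302 and 0.288 in cerulein. Cd14 gave 0.235, 0.560 and 0.174 in saline and 0.734, 1.30 and 1.32 in cerulein. Both genes were thus above saline in every cerulein library on this measure. The other monocyte and macrophage genes called higher were divided. Ly6c2 was also above saline without overlap, whereas Cd68 (mean 0.127 in saline and 0.137 in cerulein) and Lyz2 (mean 2.01 in saline and 1.85 in cerulein) overlapped, each with its highest value in saline replicate 2.

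The resident macrophage genes lay on the other side of the same measure. Adgre1 gave 0.0735, 0.155 and 0.0647 in saline and 0.0186, 0.0242 and 0.0420 in cerulein, and Csf1r gave 0.281, 0.560 and 0.362 in saline and 0.176, 0.181 and 0.164 in cerulein. Mrc1 and the 3 C1q genes were also below saline in every cerulein library. In all, 4 of the 36 markers had cerulein above saline without overlap (Ccr2, Cd14, Ly6c2 and Coro1a, the last itself part of the denominator), against 4.43% of all genes tested. Another 10 had cerulein below saline, against 37% of all genes, so a position below was common to the whole table. No test was run on these ratios.

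**Figure D4:**
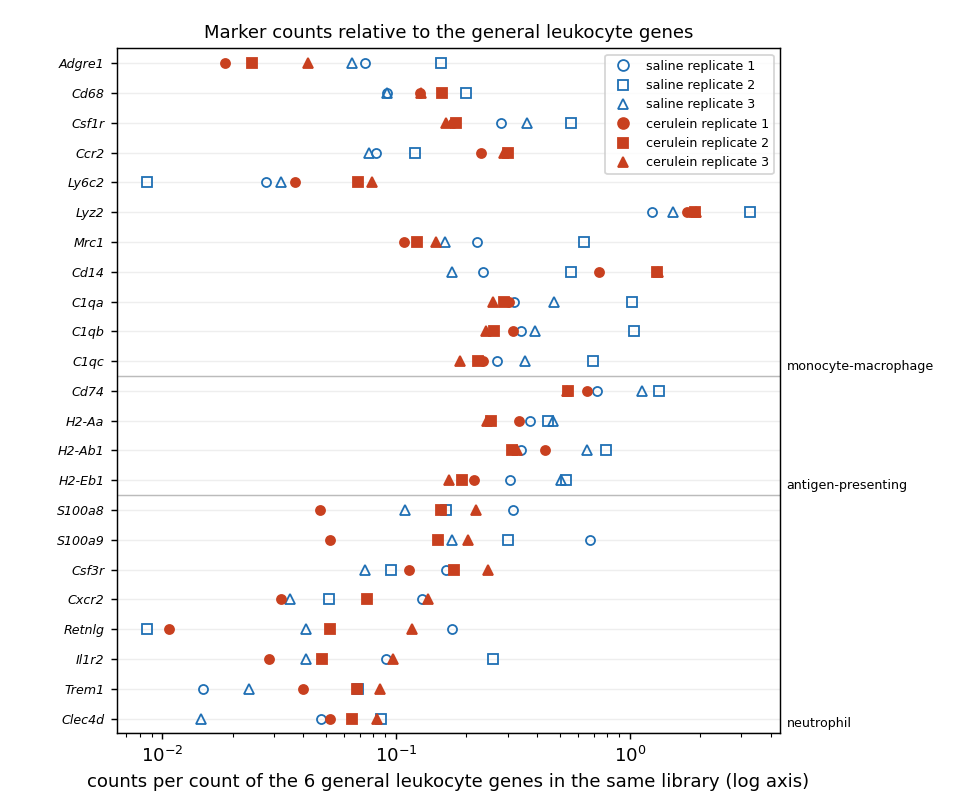
Counts of monocyte-macrophage, antigen-presentation and neutrophil genes divided by the summed counts of the 6 general leukocyte genes in the same library, on a log axis. The cerulein libraries lie to the right of all saline libraries for Ccr2, Cd14 and Ly6c2 and to the left for Adgre1, Csf1r, Mrc1 and the C1q genes, while Cd68, Lyz2 and the neutrophil genes overlap.

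None of the 4 antigen-presentation genes passed the test by edgeR, none of them had an unadjusted p under 0.05, and limma-voom and DESeq2 called none. Cd74 encodes the invariant chain that guides MHC class II molecules to the compartment where peptides are loaded. It was the most abundant of the 4, at 97.9, 34.6 and 98.5 CPM in saline and 108, 70.7 and 63.1 CPM in cerulein. The groups overlapped, and the log2 fold change was 0.06 ± 0.41 (adjusted p = 0.911, edgeR).

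H2-Aa and H2-Ab1 encode the alpha and beta chains of the class II molecule I-A, and H2-Eb1 the beta chain of I-E. Their log2 fold changes were 0.17 ± 0.53, 0.28 ± 0.40 and -0.32 ± 0.43. H2-Aa was at 50.8, 11.7 and 40.8 CPM in saline and at 55.7, 33.1 and 28.6 CPM in cerulein, with saline replicate 2 the lowest of all 6, as it was for each of these 4 genes. Without saline replicate 2, H2-Eb1 was called lower (-0.67, adjusted p = 0.0214). Per general leukocyte count, Cd74, H2-Aa and H2-Eb1 were below saline in every cerulein library, and H2-Ab1 overlapped. On that measure 37% of all genes tested lay below saline without overlap and 4.43% above, so a position below was common.

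The promoters of H2-Aa (chr17:34287824-34288073, minus strand) and H2-Eb1 (chr17:34305617-34305866, plus strand) are shown because class II genes share the Y box, bound by NF-Y, as part of the module through which CIITA switches them on together. The search for TGATTGG, on either strand, found it in 3 of the 30 marker windows (10.0%) and in 7.23% of all windows, and the third window was that of Cd68. Capitals mark TGATTGG, which begins 50 bases before the start in H2-Aa and 61 bases before it in H2-Eb1, and TTNNGNAA at 2 places in H2-Eb1.
H2-Aa: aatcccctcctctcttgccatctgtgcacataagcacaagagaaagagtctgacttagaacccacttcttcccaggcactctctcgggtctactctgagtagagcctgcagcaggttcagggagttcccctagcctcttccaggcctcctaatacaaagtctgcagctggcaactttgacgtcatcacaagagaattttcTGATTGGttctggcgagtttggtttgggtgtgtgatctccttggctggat
H2-Eb1: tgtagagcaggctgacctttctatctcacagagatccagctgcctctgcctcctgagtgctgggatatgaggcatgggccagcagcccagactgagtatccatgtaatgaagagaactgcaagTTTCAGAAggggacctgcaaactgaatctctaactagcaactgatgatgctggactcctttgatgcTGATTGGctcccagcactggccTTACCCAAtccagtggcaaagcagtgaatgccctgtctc
AACAGATG, a form of the X box next to the Y box, was in neither of these windows and was found in 1 of the 30, that of Coro1a. Only the exact letters were searched. The H2-Eb1 window holds AACTGATG, which differs in 1 letter, before its Y box. The search therefore does not show that these promoters lack an X box.

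Among the 8 neutrophil genes, 2 were called higher (25%, beside 28.7% of all genes) and 6 did not pass the test. Trem1, a receptor that amplifies inflammatory signals in neutrophils and monocytes, was at 2.03, 1.80 and 2.05 CPM in saline and at 6.61, 8.87 and 9.95 CPM in cerulein. The saline libraries lay close together here, and all cerulein libraries were above them. The rise was 2.10 ± 0.31 (adjusted p = 8.49e-05, edgeR), with the same size without saline replicate 1, and it passed under all 14 alternatives.

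Clec4d, a lectin receptor of myeloid cells that binds fungal and mycobacterial ligands, was at 6.48, 2.25 and 1.28 CPM in saline and at 8.62, 8.40 and 9.70 CPM in cerulein. The groups did not overlap, and the rise was 1.28 ± 0.42 (adjusted p = 0.0221, edgeR). It was 2.27 ± 0.38 without saline replicate 1, and the call was lost without saline replicate 3 (adjusted p = 0.0566) or cerulein replicate 3 (adjusted p = 0.0628). Trem1 and Clec4d are also carried by monocytes, so they do not mark neutrophils alone.

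The genes most closely tied to neutrophils were high in 1 control library. S100a8 and S100a9 encode the subunits of calprotectin, an abundant cytosolic protein of neutrophils that binds calcium and zinc. S100a8 was at 43.0, 4.27 and 9.49 CPM in saline and at 7.79, 20.3 and 25.7 CPM in cerulein. S100a9 was at 91.5, 7.86 and 15.1 CPM in saline and at 8.62, 19.6 and 23.8 CPM in cerulein. Saline replicate 1 was the highest of all 6 libraries for both genes, and cerulein replicate 1 lay among the other saline libraries. With all libraries the log2 fold changes were -0.16 ± 0.89 and -1.19 ± 1.03, and without saline replicate 1 they were 1.36 ± 0.69 and 0.57 ± 0.51, none of which passed the test.

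Csf3r, the receptor for the granulocyte growth factor G-CSF, was at 22.2, 2.47 and 6.41 CPM in saline and at 18.8, 23.0 and 28.8 CPM in cerulein. Cxcr2, the receptor for CXCL1 and CXCL2 that draws neutrophils into tissue, was at 17.6, 1.35 and 3.08 CPM in saline and at 5.31, 9.80 and 16.0 CPM in cerulein. For both genes saline replicate 1 lay within or above the range of the cerulein libraries, and the other saline libraries lay below it. Neither passed with all libraries (1.08 ± 0.66 and 0.37 ± 0.86), but both passed without saline replicate 1, at 2.40 ± 0.32 (adjusted p = 8.36e-06, edgeR) and 2.21 ± 0.56 (adjusted p = 0.00667).

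Retnlg, a secreted resistin-like protein of mature neutrophils, was at 23.6, 0.225 and 3.59 CPM in saline and at 1.77, 6.77 and 13.7 CPM in cerulein, with 1 read in saline replicate 2. Il1r2, the decoy receptor for interleukin 1, was at 12.3, 6.74 and 3.59 CPM in saline and at 4.72, 6.30 and 11.3 CPM in cerulein. Saline replicate 1 was the highest of the 6 libraries for both. Their log2 fold changes were -0.43 ± 1.27 and -0.08 ± 0.44, and they were above 0 without that library, at 1.97 ± 1.45 and 0.47 ± 0.40, without passing the test. Without saline replicate 1 the median over the 8 genes was 2.03, in place of 0.14, and 4 of them were called higher. Over all genes tested in that fit, the median was 0.020 and 29.2% were called higher.

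Promoters are shown for the calprotectin pair, S100a8 (chr3:90668821-90669070, plus strand) and S100a9 (chr3:90695722-90695971, minus strand), and for Clec4d (chr6:123261857-123262106, plus strand), as genes of this class that behaved differently. Capitals mark GAGGAA (read as TTCCTC on the other strand), at 2 places in S100a8 and 1 in Clec4d, and TTNNGNAA on either strand, at 1 place in S100a8, 2 in S100a9 and 3 in Clec4d.
S100a8: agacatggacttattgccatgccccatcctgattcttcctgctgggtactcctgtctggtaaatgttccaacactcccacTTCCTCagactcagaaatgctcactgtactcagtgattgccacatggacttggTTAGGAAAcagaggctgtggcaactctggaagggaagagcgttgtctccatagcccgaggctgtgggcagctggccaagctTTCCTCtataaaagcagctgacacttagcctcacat
S100a9: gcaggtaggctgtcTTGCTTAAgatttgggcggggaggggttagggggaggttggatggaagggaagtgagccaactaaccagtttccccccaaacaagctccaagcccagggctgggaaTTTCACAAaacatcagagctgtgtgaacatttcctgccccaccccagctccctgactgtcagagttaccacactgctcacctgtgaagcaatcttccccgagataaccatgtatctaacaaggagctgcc
Clec4d: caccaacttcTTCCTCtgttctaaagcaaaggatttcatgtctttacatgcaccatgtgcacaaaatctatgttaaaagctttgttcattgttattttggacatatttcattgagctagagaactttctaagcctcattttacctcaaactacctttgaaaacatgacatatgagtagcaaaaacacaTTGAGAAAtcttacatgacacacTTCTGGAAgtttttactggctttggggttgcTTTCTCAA
No GAGGAA was in the window of S100a9, which says only that these letters are absent there.

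Of the 9 lymphocyte genes, 7 were tested, 1 was called higher (14.3%, beside 28.7% of all genes) and 6 did not pass. Ltb, lymphotoxin beta, is a ligand of the TNF family on lymphocytes that shapes lymphoid tissue. It was at 3.11, 1.12 and 5.13 CPM in saline and at 10.3, 7.70 and 5.54 CPM in cerulein. Cerulein replicate 3 lay just above saline replicate 3, so the groups were barely apart. The rise was 1.35 ± 0.41 (adjusted p = 0.0146, edgeR), and the call was lost without cerulein replicate 1 (1.12, adjusted p = 0.0646).

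Its promoter (chr17:35194257-35194506, plus strand) is shown because Ltb was the one marker whose window held the NF-kB motif searched, found on either strand in 1 of the 30 marker windows (3.33%) and in 0.356% of all windows. Capitals mark GAGGAA and, further on, TTNNGNAA overlapping the NF-kB match on the reverse strand.
Ltb: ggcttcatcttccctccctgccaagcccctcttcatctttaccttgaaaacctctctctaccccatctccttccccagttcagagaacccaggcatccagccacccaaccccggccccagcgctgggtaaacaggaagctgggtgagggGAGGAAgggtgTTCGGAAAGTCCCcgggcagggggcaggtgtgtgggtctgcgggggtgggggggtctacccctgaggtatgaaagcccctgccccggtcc

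The T cell genes rested on very few reads. Cd3e and Cd3g, chains of the T cell receptor complex, and the co-receptors Cd4 and Cd8a each had 1 read in saline replicate 2. Cd3e was at 4.32, 0.225 and 3.85 CPM in saline and at 4.49, 2.22 and 1.89 CPM in cerulein, and Cd4 was at 7.02, 0.225 and 6.41 CPM in saline and at 7.08, 5.25 and 2.52 CPM in cerulein. In cerulein, replicate 1 was the highest and replicate 3 the lowest for Cd3e, Cd4 and Cd8a. Log2 fold changes were -0.01 ± 0.64 for Cd3e, -0.95 ± 0.77 for Cd3g, 0.08 ± 0.76 for Cd4 and 0.13 ± 0.74 for Cd8a. With standard errors of this size, these values do not show that the T cell genes were alike in both groups.

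Cd79a and Cd79b encode the signalling chains of the B cell receptor. Cd79a was the most abundant lymphocyte gene, at 11.1, 3.37 and 11.8 CPM in saline and at 19.7, 9.34 and 9.82 CPM in cerulein, with overlapping groups (0.55 ± 0.45). Cd79b was at 5.67, 2.02 and 5.39 CPM in saline and at 11.5, 5.95 and 5.79 CPM in cerulein. Its groups were apart by a narrow margin, and it did not pass (0.80 ± 0.39, adjusted p = 0.0990, edgeR). Markers of lymphoid stroma also varied between libraries. The sum of 7 such genes, among them Cxcl13 and Ccl21a, which guide lymphocytes within lymph nodes, was 119, 25.8 and 68.2 CPM in saline and 102, 56.4 and 66.7 CPM in cerulein. None of the 5 stromal genes tested was called by edgeR, limma-voom or DESeq2, none had an unadjusted edgeR p under 0.05, and the part of lymphoid tissue in the lymphocyte values was not tested.

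Other genes of leukocyte recruitment were read from a list of 15 chemokines, adhesion molecules and integrins. Of these, 10 were called higher and none lower, beside 28.7% and 27.1% of all genes tested, with a median log2 fold change of 2.27. Ccl2, the main ligand of CCR2, was at 3.11, 4.27 and 7.95 CPM in saline and at 65.9, 102 and 88.5 CPM in cerulein, a rise of 4.14 ± 0.30 (adjusted p = 6.78e-07, edgeR). Cxcl2, a ligand of CXCR2, rose by 3.51 ± 0.30, from 1.28 to 3.14 CPM in saline to 19.6 to 23.1 CPM in cerulein. Ccl3, a chemokine of macrophages, rose by 4.001 ± 0.51. A ligand of CCR2 and a ligand of CXCR2 were thus higher in every cerulein library than in any saline library.

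Of 17 further monocyte and macrophage genes tested, 4 were called higher and 2 lower with all libraries. The share called higher was below the 28.7% of all genes. Without saline replicate 1, 8 of the 17 were called higher and 1 lower, beside 29.2% and 28.1% of all genes. The median log2 fold change over the 17 was -0.04 with all libraries and 0.16 without saline replicate 1. Among those not called with all libraries, Plac8 and F13a1 had -0.52 ± 0.37 and -0.95 ± 0.40, and Msr1 and Mpeg1 had 1.13 ± 0.49 and 0.72 ± 0.47. Without saline replicate 1, Msr1 and Mpeg1 were called higher (2.07 and 1.30), whereas Plac8 and F13a1 were not called (-0.18 and -0.38). With all libraries, Fcgr1, the high-affinity Fc receptor CD64, rose by 2.14 ± 0.33 on the log2 scale. Lst1, on few reads, rose by 2.81 ± 0.72. Spi1, named here because it encodes PU.1, rose by 1.13 ± 0.31. Mertk, a receptor with which resident macrophages take up dying cells, fell by 1.57 ± 0.33, from between 8.09 and 16.5 CPM in saline to between 2.80 and 5.78 CPM in cerulein (adjusted p = 0.00134, edgeR), and lost its call with library size alone. The other gene called lower was Cd163, a scavenger receptor of tissue macrophages, which fell by 0.71 ± 0.27 (adjusted p = 0.0386) with overlapping groups and was not called without saline replicate 1 (log2 fold change -0.32, adjusted p = 0.206).

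Of 13 further neutrophil genes tested, 3 were called higher with all libraries and 10 without saline replicate 1, beside 28.7% and 29.2% of all genes. None was called lower in either fit, though some other settings called 1 or 2 lower. Acod1, the enzyme that makes itaconate in activated myeloid cells, rose by 2.71 ± 0.40 and Fpr2, a formyl peptide receptor, by 2.12 ± 0.47. Their summed level, over the 20 genes of the list, was 294, 58.2 and 115 CPM in saline and 289, 242 and 323 CPM in cerulein, so saline replicate 1 again lay among the cerulein libraries. With all libraries, none of 13 further lymphocyte genes was called by edgeR, limma-voom or DESeq2, and none had an unadjusted edgeR p under 0.05. Without saline replicate 2, 2 of the 14 then tested were called lower, beside 25.7% of all genes, with a median log2 fold change of -0.41. Of 12 genes of dendritic cells and class II loading, 3 were called higher with all libraries, close to the share over all genes. Zbtb46, a transcription factor of classical dendritic cells that endothelial cells also express, rose by 1.75 ± 0.14, from between 30.1 and 31.8 CPM to between 101 and 107 CPM, and was the tightest change of that list.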

How the data were processed

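RNA from the pancreas of 3 saline and 3 cerulein samples was sequenced from TruSeq Stranded mRNA libraries, per the labels' protocols. The authors deposited raw counts per gene, with 1 column per library. Trimmomatic, STAR, HTSeq and the mm10 build are named per the submitters' processing notes; the sources used here do not give the annotation, the feature counted or the strand setting. Overlapping genes and near-identical copies may therefore share or lose reads.

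The counts were used unchanged. The test was edgeR's (version 4.0.16, R 4.3.3) two-sided quasi-likelihood F test with robust shrinkage, after filterByExpr (minimum count 10, minimum total 15) and TMM scaling, with Benjamini-Hochberg adjustment over 12441 genes. CPM are counts scaled by the TMM-adjusted library size. Standard errors were derived from the F statistics. The test was checked on simulated counts, drawn with the same dispersion for every gene and no deviating library. That check therefore does not cover the spread seen among the saline libraries. Lengths per gene are merged GENCODE exons. Alternatives were other scalings, other filters, limma-voom (limma 3.58.1), DESeq2 1.42.0, a replicate block and each library left out. Markers, gene lists and the rule for named genes were chosen with earlier results of these data known. Per-library values are given for markers called, for those whose call or direction changed without saline replicate 1, and for the most abundant of each class. Of each further list, up to 3 called genes with the smallest p could be named; Ptprc and others named beyond the rule were chosen after their values were seen.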

Additional observations from a re-analysis of the deposited data

How the results depend on the processing

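Cd3e, Cd3g, Cd4 and Cd8a had 1 read each in saline replicate 2, although that library had more counts in all (6184013) than saline replicate 3 (5335117). Relative to TMM, the median over all genes shifted by -0.20 with upper-quartile factors and by 0.56 with library size alone. The 5 monocyte and macrophage genes called higher were called under every alternative.

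Leaving out each library in turn, 8 to 13 markers were called higher and 0 to 3 lower. By class, the number called higher lay between 1 and 3 for general leukocyte genes, 1 and 4 for neutrophil genes and 0 and 1 for lymphocyte genes. The number called lower lay between 0 and 2 for monocyte and macrophage genes and 0 and 1 for antigen-presentation genes. Without a count filter, and with upper-quartile factors, 1 marker was lower, the monocyte-macrophage gene Adgre1. General leukocyte genes called higher were 1 with upper-quartile factors. Lymphocyte genes called higher were 2 with library size alone, 3 without a count filter and 2 with the replicate block.

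Log2 fold changes of markers not called with all libraries changed sign as follows. With upper-quartile factors they were -0.11 for C1qa, -0.12 for C1qb, -0.14 for C1qc, -0.13 for Cd74, -0.023 for H2-Aa, -0.11 for Cd4 and -0.054 for Cd8a. With library size alone they were 0.27 for Csf1r, 0.23 for Mrc1, 0.21 for H2-Eb1, 0.25 for S100a8, 0.42 for Il1r2 and 0.51 for Cd3e. With limma-voom they were 0.14 for S100a8, 0.34 for Retnlg and 0.44 for Cd3e. Cd3e was 0.052 without a count filter, 0.0029 with CPM above 1 in 3 libraries and 0.018 with DESeq2. The cause was not tested.

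Over the libraries left out, the range was -0.13 to 1.33 for Ptprc, -0.54 to 0.040 for Csf1r, -0.48 to 0.11 for Mrc1, -0.11 to 0.25 for C1qa, -0.20 to 0.29 for C1qb, -0.18 to 0.27 for C1qc, -0.27 to 0.27 for Cd74, -0.22 to 0.58 for H2-Aa, -0.047 to 0.57 for H2-Ab1, -0.61 to 1.36 for S100a8, -1.66 to 0.57 for S100a9, -0.10 to 2.21 for Cxcr2, -1.18 to 1.97 for Retnlg, -0.49 to 0.47 for Il1r2, -0.51 to 0.53 for Cd3e, -0.43 to 0.61 for Cd4 and -0.60 to 0.89 for Cd8a.

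The labels do not say whether the replicate numbers pair the samples, and the values below do not settle it. Same-numbered libraries had deviations from their group means that correlated at 0.19, 0.22 and -0.15. Replicates 1 and 2 of each group correlated best with their own number. Saline replicate 3 correlated best with cerulein replicate 2 (0.084), and cerulein replicate 3 with saline replicate 1 (0.088). With the replicate block 11 markers were called higher and none lower, S100a8, Retnlg and Cd3e stood at 0.24, 0.10 and 0.17, and Cd52 was not called (adjusted p = 0.0603).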

Other observations

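Genes of immature neutrophil granules gave values not described above, chosen after they were seen. Ngp, a granule protein of neutrophil precursors, was at 14.99, 0.90 and 4.10 CPM in saline replicates 1, 2 and 3 and at 0.47, 0.12 and 1.76 CPM in the cerulein replicates. It did not pass the test (log2 fold change -3.18 ± 1.13, adjusted p = 0.0515 by edgeR). Ngp had the lowest log2 fold change of the further neutrophil list. In that list 1 gene was called lower with upper-quartile factors, RLE factors, DESeq2, the replicate block or no count filter. The number called lower was also 1 without saline replicate 3 or cerulein replicate 3, and 2 without saline replicate 2. Ly6g, the antigen most used to sort mouse neutrophils, had 1.76 CPM in saline replicate 1 and between 0.22 and 0.35 CPM in the other 5 libraries, too few reads to be tested.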
